A study of Mus musculus with 25 samples.

Results

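The synaptonemal complex genes described here were 10 of the 29244 gene symbols counted in the testis cells of this series. They were picked by name, as Sycp1, Sycp2, Sycp3, Syce1, Syce2, Syce3, Tex12, Hormad1, Hormad2 and 4930447C04Rik, by a rule that uses no measured value. All 10 had a row in the deposited tables and all 10 had counts. Transcripts were counted by Drop-seq, which traps single cells in droplets with beads. A bead's barcode marks the cell, and a unique molecular identifier (UMI) on each captured 3′ end keeps copies of an mRNA from being counted again. Of 65063387 UMIs in 25 libraries, 171109 belonged to these genes.

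All mice were males. The wild-type group held 11 libraries of whole testis from C57BL/6 mice aged between 3 months 1 day and 9 months 14 days. The Mlh3 group held 6 libraries from Mlh3-/- mice, labelled B6;129, aged from 2 months 21 days to 8 months 30 days, so that strain background and genotype could not be told apart in the comparison with wild-type. The Cul4a group held 2 libraries of Cul4a-/- mice, also labelled B6;129, aged 1 month 18 days and 1 month 21 days. The CNP group held 2 libraries of C57BL/6 mice that carried a CNP eGFP BAC TRAP transgene, aged 2 months 14 days and 2 months 16 days. The ages are those of the labels, and the study's own sample list gives those of the Cul4a and CNP mice the other way round, so the ages of these groups are uncertain. The study's methods give the Mlh3 line as B6.129 and the Cul4a line as B6;129, so a shared background rests on the labels alone. The remaining 4 libraries were sorted cells, 1 library each. Spermatogonia came from 5 pooled pups at postnatal day 7, sorted by a Pou5f1-EGFP reporter. Their strain is C57BL/6 in the labels and B6;CBA in the study's methods. Primary spermatocytes, secondary spermatocytes and spermatids were sorted from Hoechst-stained testis cells of C57BL/6 wild-type males, all labelled with an age of 2 months 21 days. The study's methods describe staining the cells of 1 testis, and the labels do not say whether these sorts share a mouse. Spermatogonia and wild-type 1 and 2 were dissociated with enzymes and the other libraries mechanically. Another mutant strain of the study was not analysed here.

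The synaptonemal complex is the protein zipper that holds homologous chromosomes together in meiotic prophase. Each chromosome first lays down an axis, in leptotene, built on cohesin with SYCP2 and SYCP3 and decorated by HORMAD1 and HORMAD2. SYCP1 then bridges the paired axes in zygotene, and the central element proteins SYCE1, SYCE2, SYCE3, TEX12 and SIX6OS1 (the product of 4930447C04Rik) lock the bridge, so that synapsis is complete in pachytene. MLH3 acts at the late step in which recombination intermediates on the synapsed chromosomes become crossovers.

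The 10 genes lie on 9 chromosomes of the mouse genome (GRCm38, GENCODE vM21). Sycp2 spans chr2:178345293-178407685 on the minus strand and Sycp3 chr10:88459569-88473236 on the plus strand. Hormad1 spans chr3:95559677-95587671 on the plus strand and Hormad2 chr11:4345814-4441105 on the minus strand. Sycp1 lies at chr3:102818499-102936100, Syce1 at chr7:140777229-140787852, Syce3 at chr15:89390174-89410503, Tex12 at chr9:50556819-50561325 and 4930447C04Rik at chr12:72881109-72940774, all on the minus strand. Syce2 lies at chr8:84872111-84888221 on the plus strand. The annotated exons of Sycp3 share 660 bases with Chpt1 and those of 4930447C04Rik share 192 bases with Six6, each on the opposite strand. Whether the counting used strand is not given in the sources used here, so reads in those stretches could not be assigned to either gene with certainty.

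The promoters of these genes were searched for 3 short motifs in the 250 bases before each transcription start (RefSeq, GRCm38.p6), on both strands. The E-box CACGTG was present in 6 of the 10 genes (Sycp3, Hormad1, Sycp1, Syce2, Tex12 and 4930447C04Rik) and in 6.02% of all 32851 windows. The E2F6 motif GCGGGAA was present in 4 of the 10 (Sycp3, Hormad1, Syce2 and Tex12) and in 3.82% of all windows. CNCCTCAG, the motif of STRA8 and MEIOSIN, was present in 2 of the 10 (Hormad2 and Syce2) and in 6.42% of all windows. A gene was counted if any of its windows matched, while the shares are of single windows, so the 2 are not in like units. The 4930447C04Rik window and the Syce2 matches lie inside the gene as GENCODE annotates it. A match describes the letters of a window and does not show that a factor binds there. The windows of 5 genes are printed below 5′ to 3′ on the strand of the gene, with matches in capitals. Sycp2, Sycp3, Hormad1 and Sycp1 are shown because they were high together in Mlh3 testes, and Syce1 because it moved against them between stages, so these windows were chosen with the levels known. The E-box was present in Sycp3, Hormad1, Sycp1, Tex12 and 4930447C04Rik, which rose in whole Mlh3 testis. It was also present in Syce2, of whose windows 1 held all 3 motifs and which fell the most. Sycp2, with none of the 3, and Hormad2 rose without an E-box, and Syce1 and Syce3 fell without one. Whether motifs and levels go together was not tested. The Sycp2 and Sycp3 windows stop at the first annotated base of the gene and are 223 and 232 bases long.
Sycp2, chr2:178407686-178407908, minus strand: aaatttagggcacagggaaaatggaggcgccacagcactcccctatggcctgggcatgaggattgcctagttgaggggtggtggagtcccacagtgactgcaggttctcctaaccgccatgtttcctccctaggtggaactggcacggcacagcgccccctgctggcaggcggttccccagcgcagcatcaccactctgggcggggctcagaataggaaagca
Sycp3, chr10:88459337-88459568, plus strand: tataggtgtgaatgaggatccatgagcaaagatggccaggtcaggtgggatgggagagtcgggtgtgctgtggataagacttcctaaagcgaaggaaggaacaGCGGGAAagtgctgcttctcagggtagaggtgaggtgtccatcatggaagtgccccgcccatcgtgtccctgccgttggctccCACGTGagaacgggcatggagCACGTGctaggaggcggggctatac
Hormad1, chr3:95559427-95559676, plus strand: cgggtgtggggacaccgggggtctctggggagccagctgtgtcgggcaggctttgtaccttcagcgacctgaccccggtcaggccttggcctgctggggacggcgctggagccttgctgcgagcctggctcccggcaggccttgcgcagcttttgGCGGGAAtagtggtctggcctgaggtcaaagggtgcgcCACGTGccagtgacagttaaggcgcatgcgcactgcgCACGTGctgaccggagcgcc
Sycp1, chr3:102936101-102936350, minus strand: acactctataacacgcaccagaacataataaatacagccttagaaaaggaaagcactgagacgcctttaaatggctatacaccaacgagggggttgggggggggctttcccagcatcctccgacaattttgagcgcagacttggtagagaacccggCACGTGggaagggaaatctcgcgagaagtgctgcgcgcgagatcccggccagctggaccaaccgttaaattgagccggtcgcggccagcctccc
Syce1, chr7:140787855-140788104, minus strand: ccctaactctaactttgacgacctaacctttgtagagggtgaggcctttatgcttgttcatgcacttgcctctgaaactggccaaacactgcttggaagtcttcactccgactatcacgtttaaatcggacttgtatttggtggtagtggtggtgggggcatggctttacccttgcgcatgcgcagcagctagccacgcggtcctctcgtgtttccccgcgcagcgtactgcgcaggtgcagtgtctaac
In Sycp3 the E-boxes began 64 and 43 bases before the start and the E2F6 motif 147 bases before it. In Hormad1 the E-boxes began 57 and 20 bases before the start and the E2F6 motif 95 bases before it. Sycp1 held a lone E-box 94 bases before its start, and the Sycp2 and Syce1 windows held none of the 3 motifs.

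The whole-testis libraries held between 357235 and 9745302 UMIs, the extremes being a wild-type and a Cul4a library. Mlh3 libraries held 450745 to 6340116, wild-type up to 3829176, and CNP 775386 and 1054964. Mitochondrial genes took 4.55% to 13.4% of the UMIs in the Mlh3 libraries and 0.517% to 1.73% in wild-type, and only 2787 of 11210 Mlh3 barcodes passed the cell filters. Of 48081 distinct barcodes, 430 occurred in more than 1 library, with at most 27 shared by a pair. Levels are given as CPM, that is UMIs of the gene per 1000000 UMIs of the library or class. They are compared within a gene and not between genes, since a 3′ count is not a measure per length. Among the 10 genes, total UMIs ran from 1079 for Hormad2 and 1684 for Tex12 to 38069 for Sycp2 and 39707 for Syce1.

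The targeted genes were read first. Over whole testis, Mlh3 transcript stood at 10.7 to 72.9 CPM in wild-type and at 26.2 to 86.5 CPM in the libraries labelled Mlh3. Summed over pachytene-like cells, it stood at 145.6 to 263.7 CPM in wild-type and at 31.4, 71.5, 80.9, 87.2 and 57.9 CPM in Mlh3 1, 3, 4, 5 and 6. There the ranges did not overlap, and the fitted log2 fold change was -1.39 (SE 0.20, edgeR quasi-likelihood test, adjusted p = 5.788e-08 after Benjamini-Hochberg). Cul4a transcript stood at 54.5 and 49.0 CPM in the libraries labelled Cul4a and at 5.60 to 45.7 CPM in wild-type, so it was not lower in those labelled as its knockout. Which parts of either gene were deleted, relative to the 3′ ends that Drop-seq counts, is not given in the sources used here, so what these values say of the labels is not known. The pachytene-like Mlh3 values went with the Mlh3 label and the Cul4a values did not go with theirs.

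Whole testis was compared first, to ask how the 10 genes stood in testes labelled Mlh3-/-. All 10 differed between Mlh3 and wild-type in an edgeR quasi-likelihood fit over 21 libraries, with 7 higher and 3 lower in Mlh3 testes. In that comparison 61.3% of the 23386 genes tested passed the same threshold, 32.7% higher and 28.6% lower, so most genes differed and a call alone does not set these apart. The share of all genes whose libraries did not overlap was not counted, so a lack of overlap does not set them apart either. The axis genes, Sycp1, Tex12 and 4930447C04Rik rose, and Syce1, Syce2 and Syce3 fell. The median log2 fold change of the 10 genes was 1.25, beside 0.16 over all genes tested. In such bulk sums, fewer cells of a type and less RNA per cell cannot be told apart.

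The makeup of the testes differed along with these levels. The summed level of the elongating spermatid markers was 31625 to 60196 CPM in wild-type and 571 to 1145 CPM in Mlh3. Round spermatid markers stood at 3429 to 4674 CPM in wild-type and at 160 to 292 CPM in Mlh3, and Leydig markers at 0 to 390 CPM and 1336 to 9180 CPM. Pachytene markers overlapped, at 16507 to 22474 CPM in wild-type and 12670 to 24889 CPM in Mlh3. The share of pachytene-like cells did differ, at 4.23, 5.88, 50.6, 51.1, 25.5 and 42.7% of passing cells in Mlh3 1 to 6. In wild-type it ran from 0% (wild-type 1) to 5.02% (wild-type 3), and many wild-type cells stayed in unnamed clusters. The part of this makeup in the differences below was not tested.

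The lateral element genes were several times higher in Mlh3 testis. Sycp2, whose product scaffolds the axis, ranged from 210 through a median of 364 to 428 CPM in the 11 wild-type libraries. In Mlh3 1 to 6 it stood at 900.5, 2025.5, 1064.3, 1681.6, 1364.9 and 1058.5 CPM. Every Mlh3 library exceeded every wild-type library, and the log2 fold change was 1.44 (SE 0.17, edgeR, Benjamini-Hochberg adjusted p = 1.542e-08). The means were 1349 ± 432 CPM (SD, n = 6) and 337 ± 72.4 CPM (SD, n = 11). Sycp3, its filament-forming partner on the axis, ranged from 105 through 234 to 306 CPM in wild-type, and stood at 410.1, 845.3, 994.8, 846.5, 744.2 and 714.8 CPM in Mlh3 1 to 6. The Mlh3 values again lay above all wild-type values, with a log2 fold change of 1.25 (SE 0.20, edgeR, adjusted p = 2.367e-06).

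The HORMA domain genes also rose. Hormad1, which marks unsynapsed axes and is needed for the breaks that start recombination, ranged from 25.2 through 46.7 to 85.8 CPM in wild-type. In Mlh3 1 to 6 it stood at 323.9, 228.5, 204.4, 281.0, 169.0 and 273.5 CPM, so the lowest Mlh3 library was near 2 times the highest wild-type library. Its log2 fold change was 1.79 (SE 0.19, edgeR, adjusted p = 1.017e-09), and the ratio of mean CPM was 5.13. Hormad2, which monitors unsynapsed axes with it, had the fewest UMIs of the 10 genes. It ranged from 5.60 through 10.9 to 14.9 CPM in wild-type and stood at 23.3, 37.7, 23.5, 27.0, 24.7 and 26.0 CPM in Mlh3 1 to 6. The groups did not overlap, and the log2 fold change was 0.80 (SE 0.18, edgeR, adjusted p = 0.0003599).

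Sycp1, the transverse filament gene, ranged from 151 through 228 to 322 CPM in wild-type and stood at 397.2, 1308.9, 871.5, 1006.9, 1064.5 and 620.3 CPM in Mlh3 1 to 6. All 6 Mlh3 values lay above wild-type, Mlh3 1 by the least, and the log2 fold change was 1.40 (SE 0.18, edgeR, adjusted p = 4.419e-08).

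The central element genes did not move as a unit. 4930447C04Rik, which encodes SIX6OS1, had the largest rise of the 10 genes. It ranged from 14.0 through 19.0 to 25.1 CPM in wild-type and stood at 79.2, 288.4, 138.6, 133.7, 107.7 and 84.1 CPM in Mlh3 1 to 6. No values overlapped, and the log2 fold change was 2.17 (SE 0.19, edgeR, adjusted p = 9.972e-12). Tex12, whose product assembles with SYCE2 into fibers, ranged from 0 through 11.3 to 23.3 CPM in wild-type and stood at 47.8, 44.4, 27.2, 44.5, 40.7 and 39.0 CPM in Mlh3 1 to 6. It rose by a log2 fold change of 1.25 (SE 0.22, edgeR, adjusted p = 1.201e-05), with no overlap.

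Syce2, the partner of Tex12 in those fibers, went the other way and had the largest difference of the 10 genes in either direction. It ranged from 146 through 324 to 410 CPM in wild-type and stood at 65.2, 110.9, 60.8, 53.4, 61.9 and 59.0 CPM in Mlh3 1 to 6. Every Mlh3 library lay under every wild-type library, and the log2 fold change was -2.76 (SE 0.20, edgeR, adjusted p = 1.372e-13). Syce3, which links SYCP1 to the central element, ranged from 68.0 through 146 to 191 CPM in wild-type and stood at 46.6, 95.4, 70.4, 86.8, 107.7 and 77.8 CPM in Mlh3 1 to 6. It fell by a log2 fold change of 1.30 (SE 0.22, edgeR, adjusted p = 6.062e-06), although the CPM of the groups overlapped.

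Syce1, a central element gene that stands on SYCP1, was the least changed. It ranged from 501 through 637 to 862 CPM in wild-type and stood at 460.2, 394.9, 548.7, 731.3, 741.0 and 808.7 CPM in Mlh3 1 to 6. The mean CPM was 634 ± 107 (SD, n = 11) and 614 ± 170 (SD, n = 6), and the libraries were mixed. The fitted log2 fold change was -0.53 (SE 0.19, edgeR, adjusted p = 0.01526), which includes TMM factors of 0.833 to 0.947 in wild-type and 1.18 to 1.63 in Mlh3. Its call was lost over passing cells only (log2 fold change -0.34, adjusted p = 0.1605) and with a block on replicate number (adjusted p = 0.06755).

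**Figure D1:**
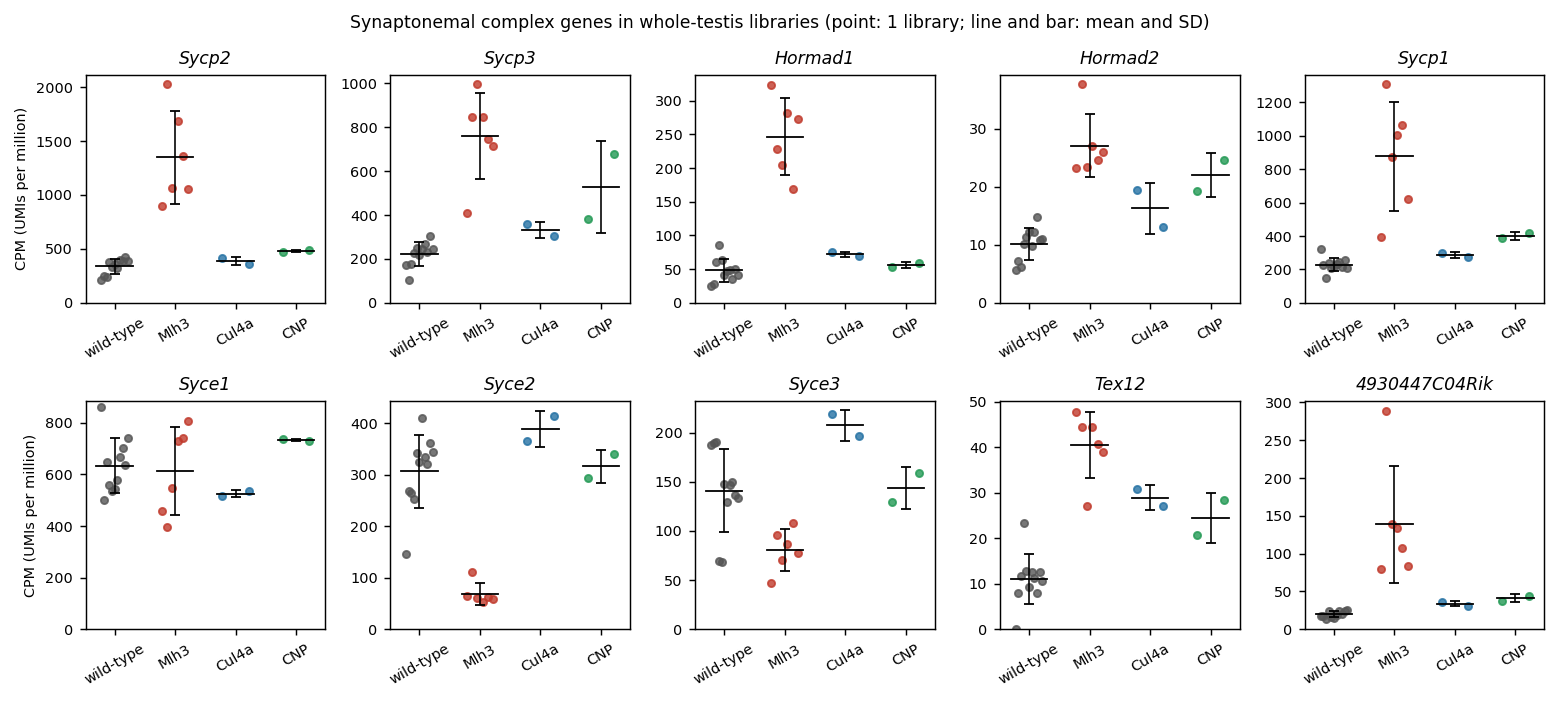
Level of each gene in whole testis, in CPM (vertical axis), for the wild-type, Mlh3, Cul4a and CNP strains. Each point is 1 library and the bars give the mean and SD. Mlh3 points lie above all wild-type points for 7 of the genes, under them for Syce2, and among them for Syce1 and Syce3. The share of all genes without overlap was not counted.

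The direction was the same on both sequencers for the genes with the largest differences. Among HiSeq libraries, Sycp2 averaged 362 CPM in 9 wild-type and 1292 CPM in 4 Mlh3 libraries, and among MiSeq libraries 227 CPM in 2 and 1463 CPM in 2. Syce2 averaged 329 and 58.7 CPM on the HiSeq, and 206 and 88.1 CPM on the MiSeq. Syce1 changed order between them, with 607 against 707 CPM on the HiSeq and 755 against 428 CPM on the MiSeq.

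The Cul4a libraries carry the same strain label as the Mlh3 libraries and held elongating spermatid-like cells, at 27.7% of passing cells. Against them, 6 of the 10 genes differed, 4 higher and 2 lower in Mlh3, where 46.9% of all genes tested passed (20.1% higher and 26.8% lower). Both Mlh3 comparisons share the Mlh3 libraries, so they are not independent. Syce2 stood at 364.9 and 414.5 CPM in Cul4a 1 and 2, and the log2 fold change was -3.08 (SE 0.25, edgeR, adjusted p = 4.056e-12). Syce3 stood at 218.9 and 196.4 CPM, above all 6 Mlh3 libraries, with a log2 fold change of -1.86 (SE 0.30, edgeR, adjusted p = 6.971e-06). Of the 10 genes, these central element genes had the largest differences from the Cul4a libraries.

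Sycp2 stood at 415.1 and 360.8 CPM in Cul4a 1 and 2, under all Mlh3 libraries (log2 fold change 1.25, SE 0.31, edgeR, adjusted p = 0.001376). Hormad1 stood at 74.9 and 69.3 CPM there (1.25, SE 0.33, adjusted p = 0.002389), Sycp1 at 298.9 and 273.8 CPM (1.08, SE 0.31, adjusted p = 0.005428), and 4930447C04Rik at 35.9 and 31.2 CPM (1.45, SE 0.31, adjusted p = 0.0003581). Sycp3, at 357.9 and 306.4 CPM, lay under every Mlh3 library, but its log2 fold change of 0.68 did not pass (SE 0.34, adjusted p = 0.0965). Hormad2 (19.4 and 13.1 CPM), Syce1 (515.4 and 534.1 CPM) and Tex12 (30.9 and 27.0 CPM) did not pass either, at log2 fold changes of 0.19, -0.26 and -0.04. With either Cul4a library left out, 3 of the 10 genes passed.

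Against wild-type, the 2 libraries each of Cul4a and CNP gave few calls over all genes. In Cul4a testis only Tex12 of the 10 passed, with a log2 fold change of 1.29 (SE 0.29, edgeR, adjusted p = 0.01271), where 2.06% of all genes passed (3 of the 10 unadjusted). The other 9 ranged from -0.27 for Syce1 to 0.73 for 4930447C04Rik. In CNP testis 0 of the 10 genes passed by edgeR (5 unadjusted), where 0.543% of all genes did. Sycp3 came nearest there, at 380.5 and 675.9 CPM and a log2 fold change of 1.11 (adjusted p = 0.07063), and the other 9 ranged from -0.10 for Syce2 to 0.94 for Tex12.

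Cells were next grouped into stages, to ask where each gene is used in wild-type testis. Clusters were built without the 10 genes and named only from markers that are not among them, so the levels below did not choose the cells directly. Several leptotene/zygotene markers, however, belong to a group of co-varying genes that the study found in these same cells. By the study's account that group also holds Tex12, 4930447C04Rik, Sycp1, Sycp2, Sycp3, Syce2 and Syce3. The order of the stages is thus not independent of the markers. Leptotene/zygotene-like and pachytene-like cells were compared within the 5 wild-type libraries (4, 6, 8, 10 and 11) that held at least 10 cells of each, with 10 to 21 and 45 to 111 cells per library. This is a description without a test. Of the 10 genes, 9 had a higher mean before pachytene, beside 49.0% of the 9515 genes measured, and the median log2 ratio with 20 CPM added was 1.32, beside -0.03 over all.

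For 4 of the genes all 5 leptotene/zygotene-like values lay above all 5 pachytene-like values, which held for 3.51% of all genes. Sycp3 stood at 2215, 2726, 4036, 6147 and 2794 CPM in leptotene/zygotene-like cells of wild-type 4, 6, 8, 10 and 11, and at 801 to 1249 CPM in their pachytene-like cells, a 3.62-fold difference in means. Sycp1 stood at 2110, 3053, 2210, 2922.5 and 2317 CPM in the same order, and at 746 to 1309 CPM in pachytene-like cells (2.54-fold). Syce2 had the steepest drop. It stood at 844, 218, 576.5, 1008 and 988 CPM before pachytene and at 78.4 to 126 CPM in pachytene-like cells (6.88-fold). 4930447C04Rik stood at 633, 327, 528, 302 and 1022 CPM, and at 71.6 to 156 CPM in pachytene-like cells (5.16-fold).

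Axis genes other than Sycp3 were higher on average but overlapped. Hormad1 was higher before pachytene in 5 of 5 libraries, at 218 to 1371 CPM against a pachytene-like mean of 201 CPM. Sycp2 was 2080 ± 558 CPM against 1622 ± 131 CPM (SD, n = 5) and higher in 4 of 5 libraries, so its level changed little between these stages. Hormad2 was higher in 4 of 5, at 117 ± 86.0 CPM against 30.5 CPM. Syce3 averaged 285 against 153 CPM and was higher in 4 of 5, and Tex12 averaged 135 ± 177 against 80.7 CPM and was higher in 2 of 5. The Tex12 order reversed without wild-type 11, in which it stood at 409 CPM.

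Syce1 was the exception. It was lower before pachytene in 5 of 5 libraries, at 419 ± 122 CPM against 799 ± 102 CPM (SD, n = 5), and the values did not overlap, which held in this direction for 13.6% of all genes. The median leptotene/zygotene-like cell held 744 UMIs and the median pachytene-like wild-type cell 1637, so the former values rest on few UMIs. Leydig-like wild-type cells, which should lack these genes, were taken as a measure of background. Whether that background is free RNA or doublets was not tested. Their 44 cells, with a median of 472.5 UMIs, gave pooled levels of 302 CPM for Sycp2, 137 for Sycp3, 110 for Sycp1, 274 for Syce1, 329 for Syce2 and 55 for Hormad1 and for Syce3. These background levels rest on few UMIs. The pachytene-like level of Syce2 was under its background, and its leptotene/zygotene-like mean above it.

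After pachytene the axis and filament genes dropped, while the central element genes diverged. In meiotic division-like cells of the 11 wild-type libraries, Sycp2 averaged 301 ± 46.7 CPM, Sycp3 190, Sycp1 188, Hormad1 43.2 and 4930447C04Rik 5.89 CPM, each lower than in pachytene-like cells. Syce1 instead had its highest mean there, at 892 ± 116 CPM (688 to 1062), then 468 ± 103 CPM in round and 395 ± 65.9 CPM in elongating spermatid-like cells. Syce2 had its lowest mean in meiotic division-like cells, at 76.5 ± 39.7 CPM, and then climbed to 377 ± 84.5 CPM in round and 673 ± 190 CPM in elongating spermatid-like cells (313 to 923). Its round level was near the Leydig-like background and its mean elongating level above it, and Cul4a and CNP elongating spermatid-like cells stood at 832 and 954 CPM. Syce3 changed less, at 133, 189 and 133 CPM in the 3 later classes. Sycp2 ended at 112 and 101 CPM, Sycp3 at 48.4 and 78.1 CPM and Sycp1 at 150 and 90.6 CPM in round and elongating spermatid-like cells, under or near the Leydig-like background.

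**Figure D2:**
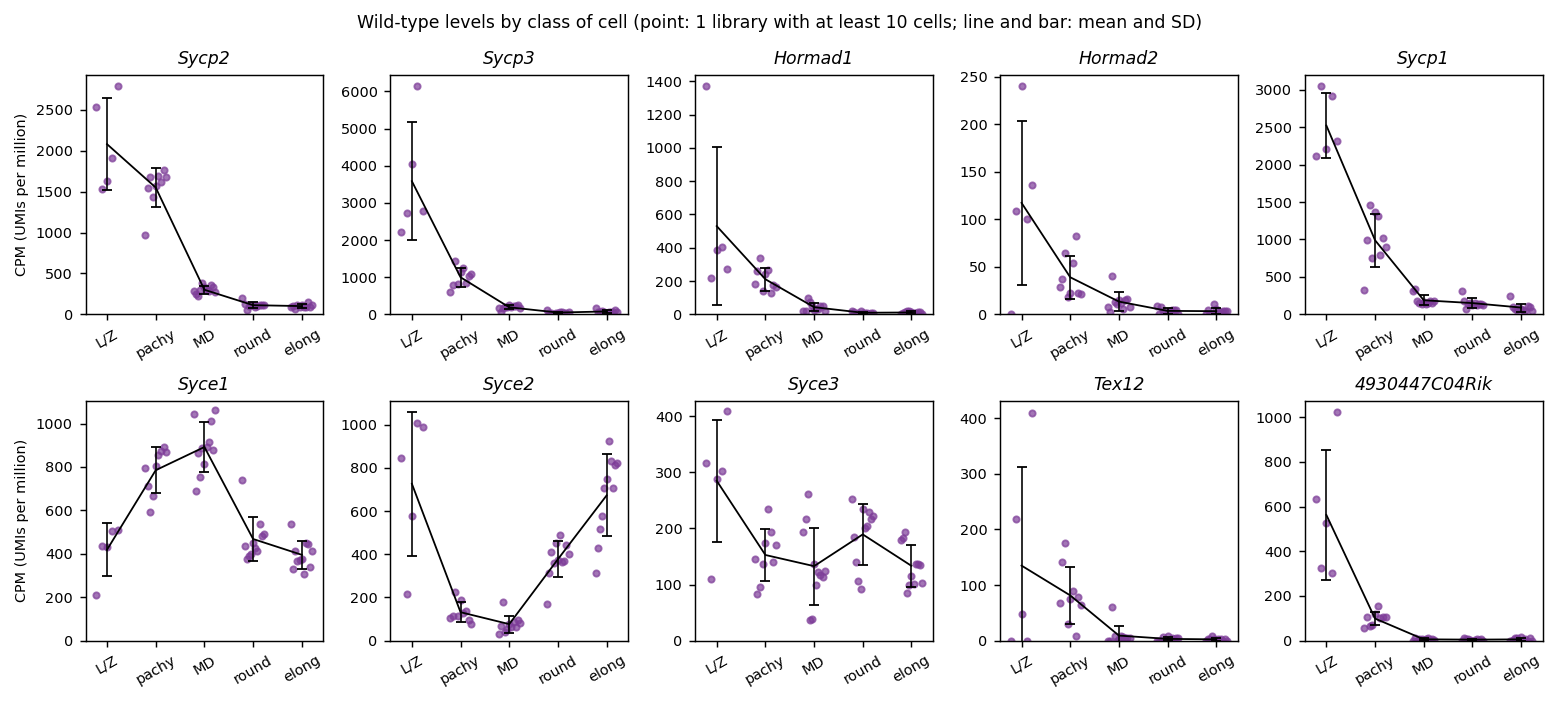
Wild-type level of each gene (CPM, vertical axis) in 5 classes of cell, leptotene/zygotene-like (L/Z), pachytene-like (pachy), meiotic division-like (MD), round spermatid-like (round) and elongating spermatid-like (elong). Points are libraries that had 10 cells or more, and the line and bars give mean and SD. Most genes are highest on the left, Syce1 peaks at MD, and Syce2 is high at both ends, with means of 727 CPM in L/Z and 673 CPM in elong.

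Levels before meiotic prophase were seen in spermatogonia. The 29 spermatogonia-like cells of wild-type testis, pooled, held Sycp1 at 684 CPM, Sycp3 at 551, Syce2 at 507 and Sycp2 at 287 CPM. The Sycp2 level was near the Leydig-like background of 302 CPM and was not told apart from it. The other 3 lay above theirs, Syce2 by the least, but these levels and their background rest on few cells and the order was not tested. In the sorted spermatogonia, of which 212 of 225 passing cells were spermatogonia-like, Sycp1 stood at 988 CPM (exact 95% Poisson interval 932 to 1047), Sycp3 at 461 (423 to 502), Syce2 at 375 (341 to 412) and Sycp2 at 300 (270 to 333). There 4930447C04Rik stood at 263 CPM (234 to 294) and Tex12 at 117 (98.4 to 139), while Hormad1 stood at 84.7 (68.9 to 103). These intervals cover counting error only, and each sort was 1 library, so the populations were not tested. Within the sorted spermatogonia library, Sycp2 stood at 314 CPM in the spermatogonia-like cells. It had 0 UMIs in the 10 Sertoli-like cells of that library, which held 58866 UMIs.

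From the sorted spermatogonia to the sorted primary spermatocytes, the genes moved in different directions. Sycp2 stood at 812 CPM (651 to 1002) and Syce1 at 597 (460 to 763) in primary spermatocytes, each above spermatogonia, where Syce1 was 199 (174 to 226). Hormad1 was also higher, at 205 CPM (129 to 311). Sycp1, at 476 CPM (354 to 626), Syce2, at 121 (64.6 to 207), and 4930447C04Rik, at 65.3 (26.3 to 135), were lower than in spermatogonia, and Sycp3 stood at 467 (346 to 615), with overlapping intervals. The primary spermatocyte library held 107117 UMIs, and 92.6% of its passing cells fell in unnamed clusters. It was a mechanical MiSeq library of an adult, with a median of 308 UMIs per barcode. The spermatogonia library was enzymatic, from day 7 and run on the HiSeq, with 2534.5. Population and preparation could thus not be told apart. In whole wild-type testis Sycp1 was instead lower in spermatogonia-like than in pachytene-like cells (990 CPM), while Sycp2 and Syce2 kept their order.

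The library labelled secondary spermatocyte went against its label in part, since 50.6% of its passing cells were elongating and 24.0% round spermatid-like, beside 3.90% meiotic division-like. It held Syce1 at 389 CPM (317 to 473), Syce3 at 267 (208 to 338) and Syce2 at 240 (185 to 308), with Sycp2 and Sycp1 at 49.6 CPM each. The sorted spermatids were much like it. Syce2 stood there at 316 CPM (249 to 396), Syce1 at 304 (237 to 382) and Syce3 at 257 (197 to 330). Sycp2 was at 92.8 CPM, Sycp1 at 67.5 and Sycp3 at 46.4. Hormad2, Tex12 and 4930447C04Rik had 0 UMIs in the sorted spermatids, which allows up to 12.6 CPM each (3 counts). In both spermatid-rich libraries Syce2 and Syce3 stood above their primary spermatocyte values of 121 and 149 CPM, though only the spermatid interval of Syce2 cleared that of primary spermatocytes. Syce2 and Syce3 are among the genes that fell in whole Mlh3 testis, where 0 passing cells were round or elongating spermatid-like. Whether their fall goes with the lack of such cells was not tested.

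**Figure D3:**
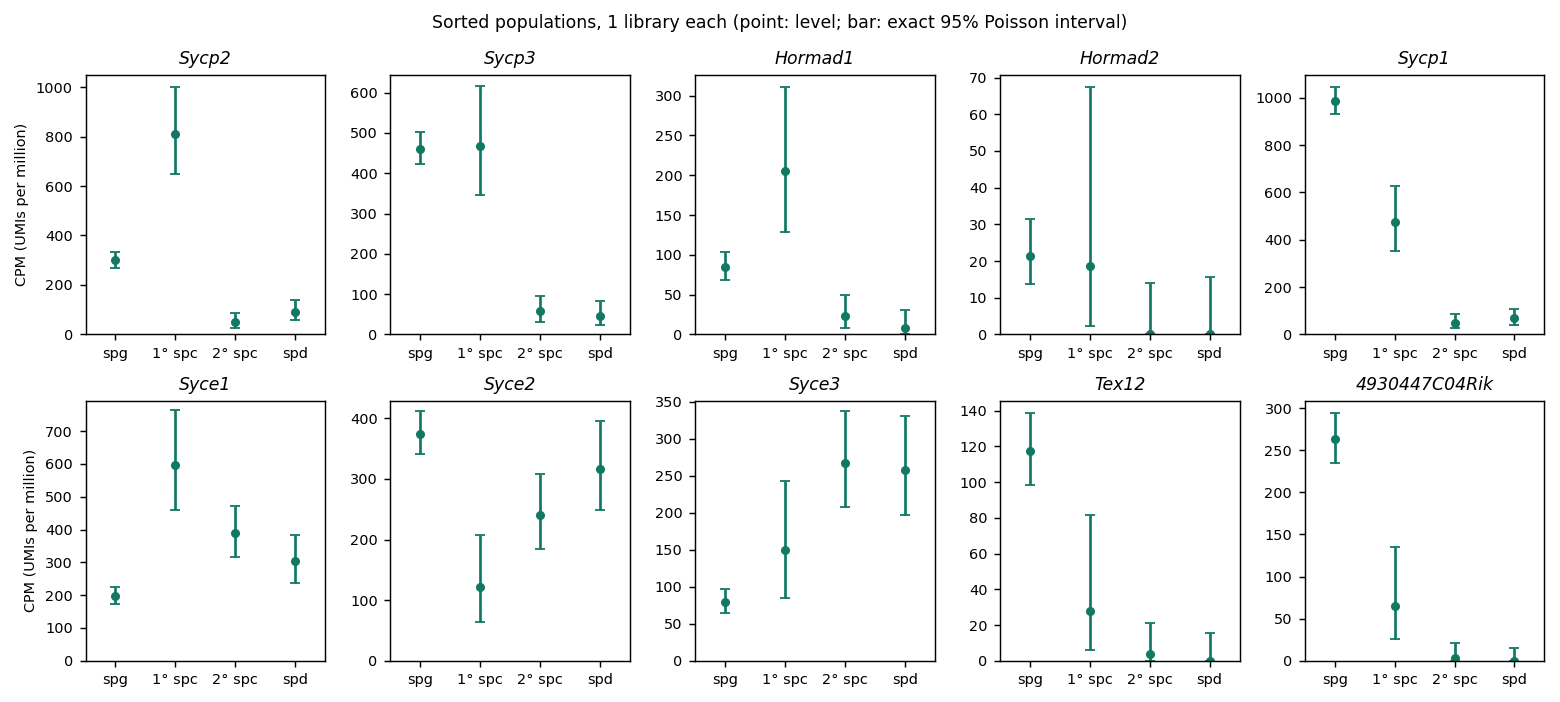
Level of each gene (CPM, vertical axis) in the 4 sorted libraries, spermatogonia (spg), primary spermatocytes (1° spc), secondary spermatocytes (2° spc) and spermatids (spd). Points are single libraries and bars exact 95% Poisson intervals. The spermatogonia library differs from the others in sequencer, dissociation and age. Sycp2 and Syce1 peak in primary spermatocytes, Sycp1 and 4930447C04Rik in spermatogonia, and Syce2 falls from 375 CPM in spermatogonia to 121 CPM in primary spermatocytes and stands at 316 CPM in spermatids.

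The comparison was then repeated within pachytene-like cells, so that the number of spermatids does not enter directly. Counts were summed over the pachytene-like cells of each library with at least 10 of them, which left 9 wild-type libraries (24 to 111 cells each) and Mlh3 1, 3, 4, 5 and 6 (18 to 378 cells each). Of the 10 genes, 2 rose in Mlh3, Hormad1 and 4930447C04Rik, and 0 fell by edgeR. Unadjusted, 4 passed. Over the 15325 genes tested, 10.5% passed, 4.40% higher and 6.08% lower. The median log2 fold change of the 10 genes was 0.28, beside 0.18 over all, and the ranges of all 10 overlapped wild-type.

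Hormad1 stood at 838, 336, 417, 284 and 466 CPM in Mlh3 1, 3, 4, 5 and 6, and at 129 to 337 CPM in wild-type, with a mean of 211 ± 69.2 (SD, n = 9). Of the 5 Mlh3 libraries, 3 exceeded every wild-type library, and the log2 fold change was 1.10 (SE 0.19, edgeR, adjusted p = 2.574e-06). 4930447C04Rik stood at 105, 210, 155, 147 and 134 CPM in the same Mlh3 libraries and at 98.8 ± 30.6 CPM in wild-type (58.2 to 156). Its log2 fold change was 0.61 (SE 0.19, edgeR, adjusted p = 0.02875). That call was lost without wild-type 3 (adjusted p = 0.05256) or wild-type 6 (adjusted p = 0.07692). Sertoli-like cells of Mlh3 2, 4, 5 and 6 held 4930447C04Rik at 395, 140, 91.8 and 199 CPM. Leydig-like cells pooled over Mlh3 held it at 52.8 CPM, and at 19.2 CPM without Mlh3 1. The part of such background in the call was not tested.

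The other 8 genes did not pass. Sycp2 stood at 2178, 2266, 2154, 1972 and 1636 CPM in Mlh3, beside 1550 ± 238 CPM in wild-type (971 to 1764), at a log2 fold change of 0.40 (edgeR, adjusted p = 0.1083). Sycp1 stood at 827, 1459, 1209, 1649 and 1075 CPM, beside 990 ± 354 CPM (log2 fold change 0.38, adjusted p = 0.208). Sycp3 stood at 670, 1715, 1134, 1082 and 1075 CPM, beside 998 ± 259 CPM. Of the 5 Mlh3 values, 4 of Sycp2 but only 1 of Sycp3 lay above the wild-type range. Syce1 stood at 555, 942, 822, 778 and 821 CPM, beside 785 ± 105 CPM.

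Syce2 and Syce3, which fell in whole testis, did not pass here. Syce2 stood at 147, 92.5, 82.5, 90.5 and 106 CPM in Mlh3 and 132 ± 46.5 CPM in wild-type (78.4 to 225), and Syce3 at 73.3, 151, 138, 171 and 131 CPM and 153 ± 46.7 CPM (83.8 to 234). Tex12 stood at 136, 67.3, 75.2, 85.0 and 82.9 CPM beside 81.4 ± 51.4 CPM, and Hormad2 at 41.9, 54.7, 34.0, 40.8 and 49.9 CPM beside 39.0 ± 22.9 CPM. Whether the difference in Syce2 between Mlh3 and wild-type itself differs between whole testis and pachytene-like cells was not tested.

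**Figure D4:**
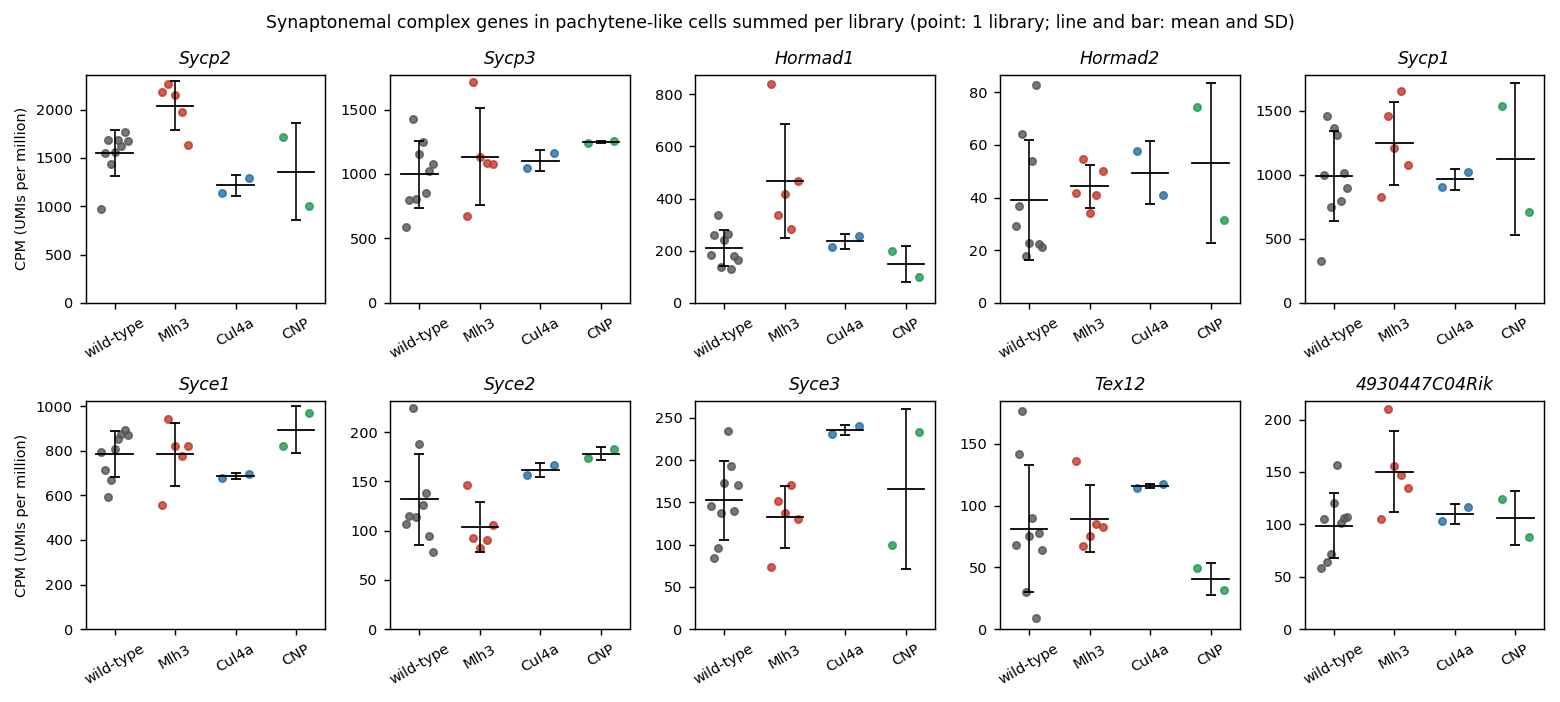
Level of each gene summed over the pachytene-like cells of each library (CPM, vertical axis) for the wild-type, Mlh3, Cul4a and CNP strains. Each point is 1 library with at least 10 such cells, and the bars give mean and SD. All 10 genes overlap between Mlh3 and wild-type, with 4 Mlh3 points above the wild-type points for Sycp2 and 3 for Hormad1.

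Against Cul4a pachytene-like cells, 3 of the 10 genes passed, where 13.8% of all genes did (3.62% higher and 10.2% lower in Mlh3). Hormad1 was higher in Mlh3, with 216 and 256 CPM in Cul4a 1 and 2 (log2 fold change 0.78, SE 0.25, edgeR, adjusted p = 0.02577). Syce2, at 156 and 167 CPM in Cul4a, was lower in Mlh3 (-0.81, SE 0.22, adjusted p = 0.005446), and so was Syce3, at 231 and 240 CPM (-0.83, SE 0.23, adjusted p = 0.006959). In Cul4a both lay above all Mlh3 libraries. Cul4a Leydig-like cells held Syce2 at 140 and 166 CPM, about the level of Cul4a pachytene-like cells, beside 43 CPM in Mlh3 Leydig-like cells, so the Syce2 call cannot be told apart from background. They held Syce3 at 52.7 and 27.6 CPM, under the pachytene-like level. Sertoli-like cells held Syce3 at 165 and 84.5 CPM in Cul4a 1 and 2. In Mlh3 2, 4, 5 and 6 they held it at 30.4, 27.9, 61.2 and 71.0 CPM, each of these values resting on 8 UMIs or fewer. The part of background in the Syce3 call was not tested. Sycp2, at 1140 and 1296 CPM in Cul4a, lay under all Mlh3 libraries but did not pass (log2 fold change 0.60, SE 0.25, adjusted p = 0.09458), nor did Tex12, at 114 and 117 CPM (-0.56, SE 0.25, adjusted p = 0.123). The log2 fold changes of the other 5 ranged from -0.26 for Hormad2 to 0.37 for 4930447C04Rik. Without either Cul4a library, 0 passed by edgeR (3 and 4 unadjusted). In pachytene-like cells of Cul4a and CNP against wild-type, 0 of the 10 genes passed by edgeR, where 1.15% and 0.489% of all genes did (3 and 1 of the 10 unadjusted), and Syce3 in Cul4a came nearest (log2 fold change 0.75, adjusted p = 0.08776).

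**Figure D5:**
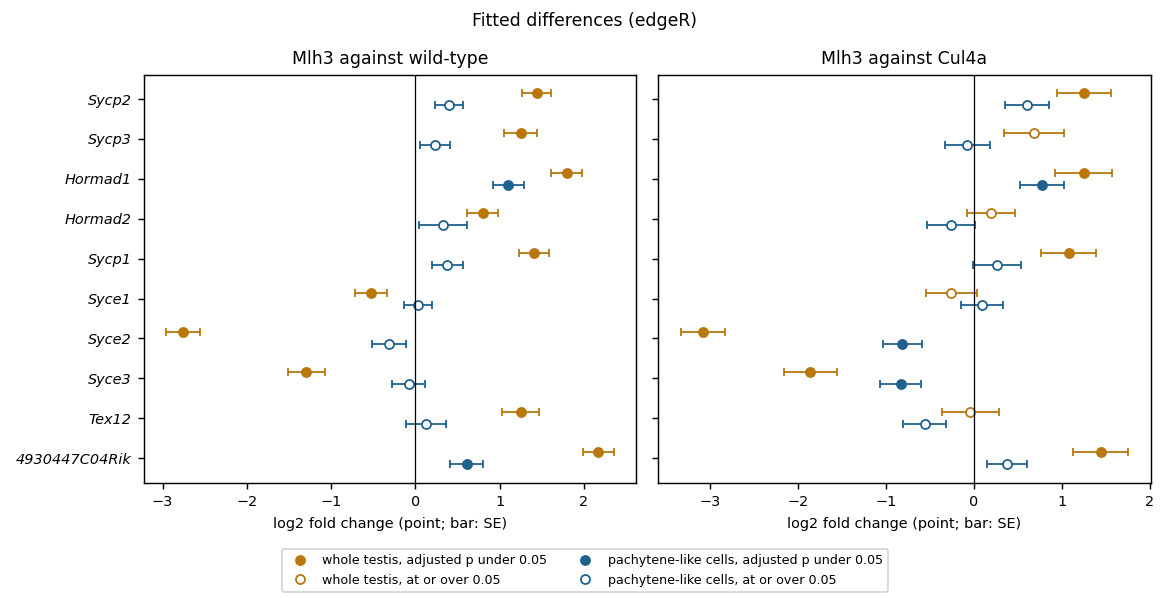
Fitted log2 fold change of each gene in Mlh3 against wild-type and against Cul4a, over whole testis and over pachytene-like cells. Points are edgeR estimates, bars are SE, and filled points have an adjusted p under 0.05. The large whole-testis differences, from -2.76 for Syce2 to 2.17 for 4930447C04Rik against wild-type, are nearer to 0 in pachytene-like cells, Hormad1 included, at 1.79 and 1.10.

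Other cells' transcripts were also measured in these pachytene-like sums. Elongating spermatid markers summed to 3985 to 9774 CPM in wild-type, 6535 to 6729 CPM in Cul4a and 761 to 1067 CPM in Mlh3. Leydig markers summed to 0 to 38.8 CPM in wild-type and 80.6 to 2325 CPM in Mlh3, highest in Mlh3 1, which also had the highest Hormad1. Sertoli markers ranged from 236 to 1968 CPM in Mlh3, while leptotene/zygotene markers overlapped at 699 to 1129 and 827 to 1270 CPM. Leydig-like cells, taken as a measure of background, differed as well. Pooled over Mlh3 they held Hormad1 at 202 CPM, which rested on Mlh3 1, where 90.6% of passing cells were Leydig-like, and at 70.4 CPM without that library, beside 55 CPM in wild-type. Syce2 stood at 43 CPM with Mlh3 1 and at 35.2 CPM without it, beside 329 CPM in wild-type. Sertoli-like cells of Mlh3 2, 4, 5 and 6 held Sycp2 at 562, 614, 535 and 512 CPM. Leydig-like cells of those libraries held it at 182, 167, 164 and 133 CPM. For Hormad1 the values were 91.1, 279, 45.9 and 114 CPM in Sertoli-like and 60.7, 117, 44.7 and 44.4 CPM in Leydig-like cells. The background level thus depends on the class of cell used. Without Mlh3 1 the log2 fold change of Hormad1 in pachytene-like cells against wild-type was 0.95 (SE 0.17, edgeR, adjusted p = 1.135e-05). The part of these transcripts in the differences was not tested.

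The pachytene-like class joined 2 clusters that differed in these genes. Cluster 7, led by Piwil1, Tex101 and Gml, held a median of 4460 UMIs per cell, and cluster 8, led by mt-Rnr1, Snhg3 and Calm2, held 1044. In the 8 wild-type libraries with both, Sycp1 was higher in cluster 7 in 8 of 8 (means 1240 and 653 CPM), as were Sycp3 (1160 and 698 CPM) and Syce2 (152 and 85.5 CPM). Hormad1 was higher there in 6 of 8 (250 and 121 CPM), while Syce1 was nearly even (795 and 758 CPM, higher in 5 of 8). The share of all genes that was higher in cluster 7 was not counted, so these counts do not set the genes apart. Of the pachytene-like cells, cluster 7 took 37.5% in wild-type, 49.3% in Mlh3, 83.2% in Cul4a and 7.07% in CNP. Within cluster 7, Hormad1 stood at 250 ± 99.5 CPM in wild-type (SD, n = 8), at 486 ± 215 CPM in Mlh3 (SD, n = 5) and at 218 and 258 CPM in Cul4a. Within cluster 8 it stood at 123 ± 88.0 CPM in wild-type (SD, n = 9) and 186 ± 28.5 CPM in Mlh3 (SD, n = 3).

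Mlh3 testes also held leptotene/zygotene-like cells, though only Mlh3 2, 5 and 6 had at least 10. Sycp1 stood there at 3246, 5854 and 3659 CPM, each above the wild-type maximum of 3053 CPM. Syce2 stood at 541, 217 and 396 CPM, inside or just under the wild-type range of 218 to 1008 CPM. Hormad1 stood at 406, 903 and 1187 CPM, above 4 of the 5 wild-type libraries and under wild-type 4. Syce1 (406, 289 and 593 CPM), Syce3 (541, 325 and 494 CPM), Tex12 (270, 217 and 0 CPM) and Hormad2 (203, 181 and 0 CPM) overlapped the wild-type ranges. The means of Sycp2, Sycp3 and 4930447C04Rik were 3020, 3537 and 813 CPM, beside 2080, 3584 and 563 CPM in wild-type. With 10 to 31 cells each, these sums were not tested.

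The wider meiotic pathway was read from a list of 40 genes in 7 roles, of which 39 were listed in the files. In whole Mlh3 testis 20 of the 39 were higher and 5 lower than in wild-type by edgeR, beside 32.7% and 28.6% of all genes tested. The counts by role below stand against the same shares. Among genes of strand exchange, 5 of 7 rose, including Meiob (log2 fold change 1.63), Spata22 (1.71) and Dmc1 (1.17), and Tex15 fell by 1.20 on the log2 scale. Among genes of crossover intermediates, 5 of 9 rose, among them the helicase gene Hfm1 (1.48), while Msh4 fell by 0.83. The fitted falls of Tex15 and Msh4 include the TMM factors, and the CPM of each overlapped between the groups. Mean CPM in wild-type and Mlh3 was 133 and 93.2 for Tex15, and 21.7 and 17.6 for Msh4. Silencing of unsynapsed chromatin had 4 of 5 higher, Atr (1.62), Mdc1 (1.56), Topbp1 (1.37) and H2afx (0.54). Telomere attachment had 3 of 6 higher, between 0.60 and 1.14.

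Axis cohesin, on which the complex is built, had 1 of 5 genes higher and 2 lower. The kleisin gene Rad21l rose (log2 fold change 2.02), from 0.500 to 3.36 CPM in means, whereas Rec8, the meiotic kleisin that holds sister chromatids, fell by 5.57 on the log2 scale (SE 0.34). Smc3, which encodes a core cohesin subunit, fell by 1.02 (SE 0.24, edgeR, adjusted p = 0.000539). That fitted change includes the TMM factors, and the CPM of Smc3 overlapped. It was 187 ± 86.3 CPM in wild-type (139 to 428) and 137 ± 78.9 CPM in Mlh3 (66.6 to 271). Rec8 stood at 45.8 ± 12.6 CPM in wild-type (32.1 to 71.5), at 33.5 and 54.4 CPM in Cul4a and at 1.57 ± 1.20 CPM in Mlh3 (0.315 to 3.68). It rested on 18 UMIs over the 6 Mlh3 libraries. In wild-type pachytene-like cells Rec8 had 1 UMI over 9 libraries. Smc3 stood there at 32.5 ± 16.9 CPM in wild-type and 44.5 ± 15.7 CPM in Mlh3, and Tex15 at 15.1 and 18.0 CPM. The 5 genes lower in whole Mlh3 testis were not called lower in those cells. Against Cul4a over whole testis, 7 of the 39 genes were higher and 3 lower, beside 20.1% and 26.8% of all genes, so the share that was higher was near that of all genes.

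Within pachytene-like cells, 4 genes of the list were higher and 1 was lower in Mlh3 than in wild-type, of 38 tested, beside 4.40% and 6.08% of all genes. Atr, the kinase recruited to unsynapsed axes with HORMAD1, stood at 228 ± 44.6 CPM in wild-type (167 to 289) and 438 ± 67.0 CPM in Mlh3 (377 to 549), without overlap (log2 fold change 1.01, SE 0.17). Brca2 (0.68) and Mdc1 (0.57) also rose. Dmc1 had 0 UMIs in 9 wild-type libraries and 47 in Mlh3, at least 4.38-fold higher over the group (3 counts). It averaged 10.6 CPM in Cul4a and 10.7 CPM in Mlh3, and did not pass between them (log2 fold change -0.13, SE 0.53, edgeR, adjusted p = 0.9217). Dmc1 and several other genes of the list are among the markers that named leptotene/zygotene-like clusters, so cells rich in them were placed outside the pachytene-like class. The gene that was lower was Mlh3 itself. Against Cul4a, 4 were higher (Brca2, Atr, Mdc1 and Hfm1) and 3 lower (Rec8, Mlh3 and H2afx), beside 3.62% and 10.2% of all genes. The Rec8 call rests on 6 UMIs in Cul4a and 0 in Mlh3, with 1 in wild-type, so no fold is given.

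Across 99 sums of library and class, Sycp1, Sycp2, Sycp3 and Hormad1 followed each other, with pairwise r between 0.84 and 0.91. Syce1 followed Sycp2 less, at r = 0.31, and Syce2 did not, at r = -0.18. Of 14687 genes, those most like the summed counts of the 10 were Tex101 (r = 0.867), Iqcb1 (0.851), Mov10l1 (0.836), Hemt1 (0.835) and Ube2t (0.835). The sums share libraries and differ in depth, so these correlations are a description.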

How the data were processed

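Testis cells were profiled by Drop-seq in 25 libraries. For each library the authors aligned reads to mm10 with STAR 2.5.3a, per the submitters' processing notes, and deposited a table of whole, unnormalized UMI counts by gene and barcode. Of 48642 barcodes, 36622 passed the study's stated filters (at least 200 UMIs and 50 genes, not more than 1 SD below the library mean, and a limit on mt-Rnr2). The study kept fewer cells, since it also removed a group of low-quality cells seen on a t-SNE map, which was not done here. Doublets were not called.

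The 10 genes were picked by name, but they, the gene lists and the tests were proposed with earlier results of these data known. Passing cells were clustered without the 10 genes (40 principal components, 20 neighbours, Leiden resolution of 2, 45 clusters), and clusters were named from fixed markers. A mean of 55.3% of wild-type cells per library stayed in unnamed clusters. Counts were summed per library, over all barcodes or over pachytene-like cells, and fitted with edgeR's quasi-likelihood test (TMM, genes with at least 5 counts, 4 strains in 1 fit, Benjamini-Hochberg adjustment, threshold 0.05). Fold changes are edgeR's log2 estimates, and CPM are not TMM-scaled. The p-values measure the spread between libraries. The labels do not say that each library is a separate mouse, and Mlh3 2 and 3 have the same age. For wild-type, the study's text counts 11 animals. The procedure was tested on simulated counts. Stages and sorted cells were described without a test. Replicate numbers did not pair the libraries, with r between -0.10 and 0.09 for same-numbered samples.

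The rule for named genes took all 10 genes in every comparison, some of them given only by a range. Genes of the meiotic list were given by counts per role, with values for those past the threshold, along with the targeted genes and the 5 genes most alike. Some genes of that list are not reported here. Alternatives were DESeq2, other filters, platform, cell filter, clustering, class and cell minimum, a replicate block, and each library left out. The tools were Python 3.11.15 (numpy 2.4.6, pandas 2.3.3, scipy 1.17.1, matplotlib 3.10.9, scanpy 1.11.5, igraph 0.11.9, leidenalg 0.10.2) and R 4.3.3 (edgeR 4.0.16, DESeq2 1.42.0, limma 3.58.1).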

Additional observations from a re-analysis of the deposited data

Results flagged for a closer look

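Of 40 sets of values of a gene over 4 to 10 libraries of a group, 7 held a library whose gap to its nearest neighbour was large for the range of the group by Dixon's criterion, which chance meets in about 1 of 20 sets. In whole testis, 3 of these were the library Mlh3 2, a MiSeq library, among 6 Mlh3 libraries. It held Hormad2 at 37.7 CPM (nearest 27.0), Syce2 at 110.9 CPM (nearest 65.2) and 4930447C04Rik at 288.4 CPM (nearest 138.6). All 10 genes remained past the threshold against wild-type in the edgeR fit without this library.

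In pachytene-like cells, Sycp2 was low in wild-type 3, at 970.8 CPM (nearest 1432.6, n = 9), and Tex12 was high in Mlh3 1, at 136.1 CPM (nearest 85.0, n = 5). In leptotene/zygotene-like cells, wild-type 4 stood apart in both Hormad1 and Syce1 among 5 libraries, at 1371.5 CPM (nearest 403.1) and 211.0 CPM (nearest 432.4). It held 13 such cells.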

How the results depend on the processing

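Against wild-type over whole testis, all 10 genes kept their direction under every alternative run. The count of genes called was 10 with any library left out, 9 with a replicate block or over passing cells only, and 5 among the MiSeq libraries alone, which left 2 per group and was added after seeing the data. The median of all genes moved from 0.16 to between -0.10 (without Mlh3 1) and 0.21 (without wild-type 2) across the alternatives, libraries left out included, while that of the 10 genes was 1.25. Against Cul4a over whole testis, 3 to 6 genes were called with a library left out, the lowest without either Cul4a library. Tex12, not called at -0.04, became 0.025 by DESeq2, 0.021 with platform as covariate and 0.17 over passing cells, and ranged from -0.32 to 0.0142 with a library left out. Hormad2, not called at 0.19, became -0.0177 in mechanical HiSeq libraries, -0.0348 with the replicate block, -0.0655 with Mlh3 2 and 3 summed and -0.0004 without mitochondrial and hemoglobin genes, and ranged from -0.20 to 0.27 with a library left out.

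In pachytene-like cells against wild-type, 1 to 3 genes were called with a library left out (1 without wild-type 3 or wild-type 6) and 7 when meiotic division-like cells were added. 4930447C04Rik also lost its call by DESeq2, under the filter on UMIs and genes alone, at a resolution of 1 and with at least 50 cells. Uncalled genes changed sign. Syce1 became -0.0012 with filterByExpr, -0.0926 under the filter on UMIs and genes alone and -0.37 with division cells added, and ranged from -0.0139 to 0.15 with a library left out. Syce3 became 0.41 with the replicate block and 0.0458 with at least 50 cells, and ranged from -0.18 to 0.034. Tex12 became -0.19 with the replicate block, and Syce2 0.0278 with division cells added. Against Cul4a, 0 to 4 genes were called with a library left out, 5 with at least 50 cells and 0 by edgeR with the replicate block (3 unadjusted). That block reversed Sycp1 to -0.74, Syce1 to -0.55 and 4930447C04Rik to -0.39. Sycp3 became 0.0145 by DESeq2, 0.0287 with filterByExpr, 0.0473 with platform, 0.0729 in mechanical HiSeq libraries and 0.50 with division cells added, and ranged from -0.21 to 0.0751. Syce1 became -0.0517 under the filter on UMIs and genes alone, -0.073 at a resolution of 1 and -0.33 with division cells added, which also gave Hormad2 0.25 and Tex12 0.32. Hormad2 ranged from -0.47 to 0.0595. The cause was not tested.

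Between stages, 8 or 9 of the 10 genes were higher before pachytene with a library left out, and the log2 ratio of Tex12 ranged from -0.28 (without wild-type 11) to 1.14. A resolution of 1 gave no leptotene/zygotene-like class. Depth limited Hormad2 and Tex12 most, with 1079 and 1684 UMIs in all. A lone library left in a group was assumed to vary like the others.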

Other observations

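Cluster 37, an unnamed cluster of 205 whole-testis cells led by Kcnq1ot1, 4930581F22Rik and Gm14244 and by several mitochondrial genes, held Sycp2 at 3728 CPM (exact 95% Poisson interval 3503 to 3964, counting error only). Sycp3 stood there at 466 CPM and Sycp1 at 940 CPM. It held 42 wild-type, 101 Mlh3, 33 Cul4a and 29 CNP cells, with a median of 769 UMIs, and was chosen for mention after its values were seen.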
